A study of Mus musculus with 6 samples.

Results

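Expression of 42 genes of autophagy and the lysosome was followed in hepatocytes of wild-type mice (WT) and of mice with both copies of the gene AEG-1 mutated (C75S, from AEG-1-C75S). The members were taken by symbol from a fixed list, and all 42 were found among the 55487 gene rows of the count tables and passed the filter on low counts, which left 12741 genes. AEG-1, the product of *Mtdh*, is a membrane protein that can carry a palmitate on a cysteine, and C75S puts a serine in place of the cysteine at position 75. Both genotypes came from matings between heterozygotes, the mice were adults 6 to 8 weeks old, and RNA was taken 48 h after the hepatocytes had been isolated. All 6 samples carry the label Control for treatment, with 3 libraries of each genotype. The labels name no strain, do not describe how the allele was made and do not say that each library came from its own mouse, so p-values measure the spread between these libraries, which may be technical.

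In macroautophagy a double membrane, the autophagosome, grows around part of the cytoplasm and then fuses with a lysosome, where acid hydrolases break the cargo down. The ULK kinase complex starts the process, the Beclin 1 lipid kinase complex marks the membrane, and a pair of ubiquitin-like conjugation systems attaches LC3 and GABARAP proteins to it. In the liver this route supplies amino acids and lipids during fasting and removes damaged organelles, and transcription factors of the TFEB and TFE3 family raise many of its genes when nutrients are scarce.

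The 42 genes differed little between the genotypes. Only *Cd63*, a tetraspanin of late endosomes and lysosomes, was called, meaning an adjusted p-value under 0.05 by the quasi-likelihood test of edgeR, and it was 1.21-fold higher in C75S. That is 1 of 42 members (2.38%), against 3.11% of all genes tested (1.74% higher and 1.37% lower). None was called lower by edgeR, or by DESeq2 or limma-voom on the same genes, while edgeR with no filter on low counts called *Atg13* lower (adjusted p = 0.0366). In bulk RNA, fewer cells expressing a gene and less RNA of it per cell cannot be told apart. Before adjustment, 7 members (16.7%) had a p-value under 0.05, 4 of them higher and 3 lower in C75S, against 13.4% of all genes (6.91% higher and 6.51% lower). In 9 members (21.4%) every C75S library lay on one side of every WT library, 5 of them higher and 4 lower, against 18.0% of all genes (9.02% higher and 8.96% lower). These shares lie near those of the whole table.

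The sizes were small as well. Taken as C75S minus WT, the log2 fold change had a median of 0.01 over the 42 members and -0.003 over all genes tested, with members ranging from -0.18 to 0.28. The change was smaller than 1.2-fold in 41 of 42 members, against 83.0% of all genes. The 95% interval of the log2 fold change lay within 1.5-fold in either direction for all 42 members, and within 1.2-fold for 32 of them. The members also varied less between replicates: their pooled standard deviation of log2 CPM within genotypes had a median of 0.072, compared with 0.108 over all genes tested. Neither this comparison nor that of the 1.2-fold shares was matched for level. Per kilobase of exon, 38 of 42 members lay above the median of all tested genes.

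**Figure D1:**
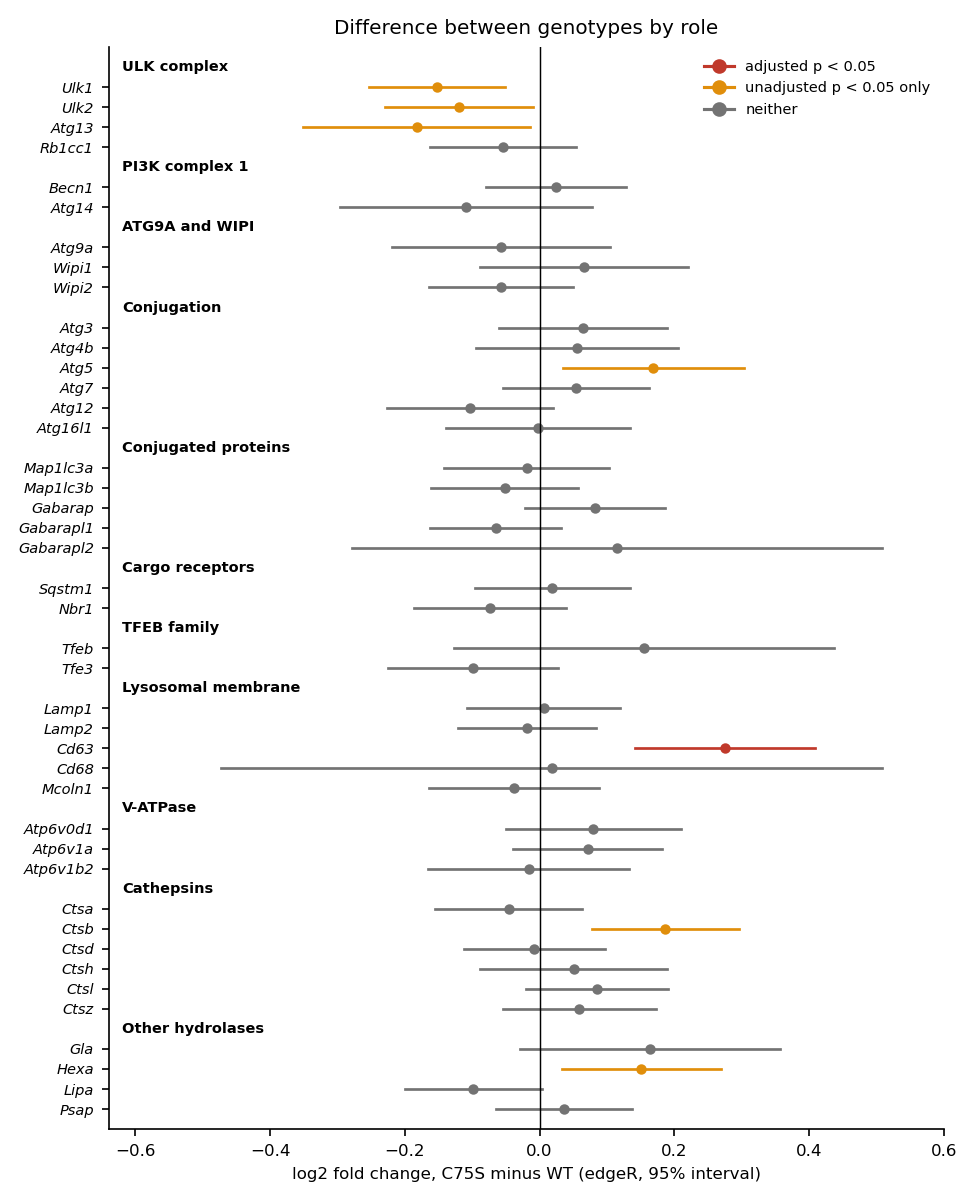
Log2 fold change of C75S minus WT (x axis, edgeR) with its 95% interval for each of the 42 genes, grouped by role. Red marks an adjusted p-value under 0.05, which only *Cd63* reached, and orange marks the 6 genes with an unadjusted p-value under 0.05 alone.

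Library depth ran from 16944723 to 21044292 counts on genes, and 3 counts corresponded to 0.142 to 0.172 CPM (counts per 1000000 on TMM-scaled library sizes). The hepatocyte product albumin was at 55643 CPM or more in every library, with a log2 fold change of -0.15 (adjusted p = 0.347 by edgeR). Of 9 tested hepatocyte markers 4 had an estimate above 0, and *Cyp2e1* was the 1 called (0.31, adjusted p = 0.00908 by edgeR). Of 18 listed markers of Kupffer cells and macrophages, 16 stayed under 2 CPM in all libraries, and the others were *Cd14* and *Mpeg1*. All 3 tested markers of this list had an estimate above 0, and 0 were called. The cholangiocyte keratin *Krt19* rose, from 5.19 to 5.70 CPM in WT to 8.21 to 10.6 CPM in C75S (log2 fold change 0.80, adjusted p = 0.0015 by edgeR). The endothelial *Pecam1* was at 1.14 to 2.58 CPM in WT and 2.87 to 3.80 CPM in C75S and did not pass (adjusted p = 0.208 by edgeR). Of 7 tested endothelial markers 6 had an estimate above 0 and 0 were called. The exception was *Stab2*, the most abundant (log2 fold change -0.09). Of 5 tested markers of stellate cells and fibroblasts 2 were above 0. *Acta2* was the 1 called (0.82, adjusted p = 0.0255 by edgeR), and *Reln*, the most abundant, was at -0.36. Over all genes tested, 3.11% were called and 49.1% were above 0. The part of these cell types in the values of the 42 genes was not tested.

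The sequence bound by TFEB and TFE3 is built on the E-box CACGTG, and many lysosomal genes are known to carry it near their start sites. Promoter windows from 250 bases before to 50 bases after the start site were given by RefSeq (GRCm38.p6) for 34 of the 42 members. The E-box was found in the windows of 12 members (35.3%), against 8.09% of the 27025 genes with a window. The longer form TCACGTGA, which contains the E-box, was found in 7 members (20.6%), against 1.125% of genes. The full palindrome GTCACGTGAC was found in 0 of 34 members and in 0.37% of genes. All these forms read the same on both strands. The stretches below show the E-box, in capitals, for *Lamp1*, whose window held the most copies, and for *Atg3* and *Atg5*, which act in conjugation. They end before any annotated exon.
*Lamp1*, chr8:13159080-13159160, plus strand: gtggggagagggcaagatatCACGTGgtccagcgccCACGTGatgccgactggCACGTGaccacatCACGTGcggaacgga
*Atg3*, chr16:45158715-45158783, plus strand: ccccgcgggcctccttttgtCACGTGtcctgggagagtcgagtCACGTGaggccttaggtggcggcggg
*Atg5*, chr10:44268305-44268338, plus strand: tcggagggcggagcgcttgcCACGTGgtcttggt

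In *Lamp1* the 4 E-boxes began 61, 45, 28 and 15 bases before the start site, and in *Atg5* the single one began 14 bases before it. The 12 members with an E-box in the window were *Atg3*, *Atg5*, *Atg7*, *Atg14*, *Atp6v0d1*, *Atp6v1a*, *Ctsa*, *Ctsd*, *Ctsl*, *Gla*, *Lamp1* and *Mcoln1*. Their log2 fold changes had a median of 0.06 and ran from -0.11 to 0.17, with 0 of 12 called by edgeR and 1 (*Atg5*) at an unadjusted p-value under 0.05. The 22 members whose window held no E-box had a median of -0.001 and ran from -0.18 to 0.28, with 1 called and 5 at an unadjusted p-value under 0.05. Over all genes tested, 3.11% were called and 13.4% had an unadjusted p-value under 0.05. A match of letters is not a measured binding site.

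The transcription factors themselves did not pass the test. *Tfeb*, which moves to the nucleus when mTORC1 is inactive, was at 8.10, 8.54 and 8.40 CPM in C75S and at 6.84, 8.38 and 7.28 CPM in WT. The highest WT library lay within the C75S range, and the log2 fold change was 0.16 with a 95% interval from -0.13 to 0.44 (adjusted p = 0.691 by edgeR). Per kilobase of exon, *Tfeb* was the lowest of the 42 members, at 1.32 ± 0.14 CPM per kb in WT (SD, n = 3). Its relative *Tfe3* was at 58.4, 59.8 and 58.0 CPM in C75S and at 67.1, 58.1 and 63.4 CPM in WT, with overlapping groups and a log2 fold change of -0.10 (SE 0.06, adjusted p = 0.526 by edgeR). Both values concern mRNA, and the location of the proteins was not measured.

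Among the initiation genes, the estimates of all 4 members from the ULK complex were below 0, and none passed the adjusted threshold. A further subunit of the complex, *Atg101*, is not among the 42 members and had a log2 fold change of 0.02 (SE 0.08, adjusted p = 0.935 by edgeR). Over all genes tested, 49.1% had an estimate above 0. *Ulk1* (chr5:110784488-110810097, minus strand), the kinase that starts autophagy, was at 126, 127 and 129 CPM in C75S and at 144, 137 and 143 CPM in WT. The groups did not overlap. The log2 fold change was -0.15 (SE 0.05, unadjusted p = 0.00474, adjusted p = 0.105 by edgeR). *Ulk2*, its paralog, was at 91.2, 90.9 and 89.6 CPM in C75S and at 94.5, 96.5 and 104 CPM in WT, again with every C75S library lower (log2 fold change -0.12, SE 0.05, adjusted p = 0.312 by edgeR). *Atg13*, the adaptor that joins the kinase to its partners, was at 116, 93.1 and 108 CPM in C75S and at 109, 131 and 119.6 CPM in WT. Here C75S replicate 1 lay above WT replicate 1, so the groups overlapped (log2 fold change -0.18, SE 0.08, adjusted p = 0.316 by edgeR). *Rb1cc1*, which encodes the scaffold FIP200, had a log2 fold change of -0.05 (SE 0.05). The estimate for *Atg13* depended on single libraries: it was -0.25 when C75S replicate 1 was left out but -0.10 when C75S replicate 2 was. *Ulk1* stayed above an adjusted p-value of 0.05 in all 15 alternative fits (lowest 0.0962, with upper-quartile scaling), and *Atg13* fell under it in 1, the fit with no filter (0.0366).

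The genes of membrane nucleation and supply had small estimates in both directions. *Becn1*, the scaffold of the lipid kinase complex, averaged 109 ± 1.5 CPM in C75S against 107 ± 3.12 CPM in WT (SD, n = 3 each), and *Atg14*, which directs that complex to autophagosomes, averaged 18.6 ± 0.77 and 20.1 ± 1.26 CPM. *Atg9a*, a lipid scramblase carried on vesicles, averaged 29.7 ± 1.96 CPM in C75S against 30.9 ± 1.73 CPM in WT. *Wipi1* and *Wipi2*, readers of the lipid that the kinase makes, had log2 fold changes of 0.07 and -0.06 (SE 0.08 and 0.05). None of these 5 genes reached an unadjusted p-value of 0.05.

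In the conjugation machinery *Atg5*, which is joined to ATG12 and helps attach LC3, was at 43.7, 43.6 and 44.4 CPM in C75S and at 37.8, 38.8 and 40.6 CPM in WT. Every C75S library was above every WT library, with a log2 fold change of 0.17 (SE 0.07, unadjusted p = 0.0162), but the gene did not pass adjustment over all genes (adjusted p = 0.208 by edgeR). Its partner *Atg12* had the opposite sign, at 60.9 ± 2.30 CPM in C75S against 65.5 ± 3.76 CPM in WT (log2 fold change -0.10, adjusted p = 0.491 by edgeR). The other conjugation genes were close to 0. The E1-like enzyme *Atg7* had a log2 fold change of 0.05, the E2-like enzyme *Atg3* 0.06, the LC3 protease *Atg4b* 0.06 and *Atg16l1*, which brings the conjugate to the membrane, -0.002.

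The LC3 and GABARAP genes encode the small proteins that become linked to the autophagosome membrane. *Gabarap* was at 335, 336 and 368 CPM in C75S and at 331, 332 and 318 CPM in WT, while *Gabarapl1* was at 278, 288 and 289 CPM in C75S and at 295, 299.6 and 300.1 CPM in WT. In neither gene did the genotypes overlap, and the signs were opposite: the log2 fold changes were 0.08 for *Gabarap* (adjusted p = 0.52 by edgeR) and -0.07 for *Gabarapl1* (adjusted p = 0.606 by edgeR). *Map1lc3a* was at 62.9, 67.9 and 68.5 CPM in C75S and at 70.3, 68.3 and 63.4 CPM in WT. *Map1lc3b*, the gene of the usual marker protein LC3B, was at 80.9, 84.7 and 79.2 CPM in C75S and at 84.3, 85.2 and 84.3 CPM in WT. Both LC3 genes overlapped between genotypes. Per kilobase of exon the order in WT was *Gabarap* at 177 ± 4.32, *Gabarapl1* at 148 ± 1.33, *Map1lc3a* at 57.0 ± 3.03 and *Map1lc3b* at 11.3 ± 0.07 CPM per kb, with each step larger than the standard deviations. The exon length of *Map1lc3b* counts all annotated isoforms (7517 bases), which lowers its value on this scale.

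*Gabarapl2* stood apart in this family, at 4.36, 3.51 and 4.92 CPM in C75S and at 3.75, 3.90 and 4.12 CPM in WT, from 74 to 92 counts a library. Its level is uncertain. The 5 processed pseudogenes with the longest matches each covered 20.6% to 20.9% of its transcript at 90.9% to 99.4% identity, and reads that fit several places were not counted to genes. Those 5 pseudogenes held 4 counts in all 6 libraries together. Its 95% interval for the log2 fold change, from -0.28 to 0.51, was wide.

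The cargo receptors were abundant. *Sqstm1*, which encodes p62, the receptor that links ubiquitinated cargo to LC3 and is itself degraded by autophagy, was at 1123, 1076 and 992 CPM in C75S and at 1048, 1082 and 1019 CPM in WT. The groups overlapped fully, and the log2 fold change was 0.02 with a 95% interval from -0.10 to 0.13 (adjusted p = 0.932 by edgeR). *Nbr1*, a second receptor of this kind, averaged 187 ± 14.2 CPM in C75S against 197 ± 8.01 CPM in WT (log2 fold change -0.07, adjusted p = 0.624 by edgeR).

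Of the lysosomal membrane genes, *Cd63* (chr10:128900989-128912822, plus strand) was the called member. It was at 82.2, 73.9 and 80.3 CPM in C75S and at 71.4, 59.5 and 64.3 CPM in WT. The lowest C75S library was above the highest WT library by a narrow gap. The gene rose from 65.1 ± 6.01 to 78.8 ± 4.39 CPM (SD over 3 libraries), by 0.28 on the log2 scale (SE 0.06, adjusted p = 0.0164 by edgeR). The gene stayed called with C75S replicate 2 dropped (adjusted p = 0.00919 by edgeR) or WT replicate 1 dropped (0.00352), and lost its call with any of the other 4 dropped. With C75S replicate 1 or 3 dropped the adjusted p-value was 0.0855 or 0.06, and with WT replicate 2 or 3 dropped it was 0.149 or 0.0699, and the log2 fold change lay between 0.21 and 0.35 whichever of the 6 libraries was dropped. A processed pseudogene, *Cd63-ps*, is 98.5% identical to *Cd63* over the longest match and covers 73.2% of its transcript. It held 27 to 46 counts a library against 1220 to 1557 for *Cd63*, and summing the 2 genes gave a log2 fold change of 0.27 (adjusted p = 0.0157 by edgeR). Reads that fit both places were not counted to either.

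*Lamp1*, the most abundant member per kilobase (448 ± 14.6 CPM per kb in WT), encodes a heavily glycosylated protein that lines the lysosome. It was at 1131, 1241 and 1237 CPM in C75S and at 1153, 1221 and 1220.0 CPM in WT, so the groups overlapped. The log2 fold change was 0.01 with a 95% interval from -0.11 to 0.12. *Lamp2*, which is also needed for chaperone-mediated autophagy, averaged 561 ± 9.34 CPM in C75S against 568 ± 15.5 CPM in WT. *Mcoln1*, the calcium channel of the lysosome, was at 61.9 ± 3.54 and 63.5 ± 3.21 CPM.

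*Cd68*, a lysosomal glycoprotein used as a macrophage marker, was at 121, 94.9 and 138 CPM in C75S and at 101, 133 and 116 CPM in WT. The libraries of both genotypes were interleaved, and the log2 fold change of 0.02 had a 95% interval from -0.47 to 0.51 (adjusted p = 0.979 by edgeR). It was the most variable member between replicates, with a pooled standard deviation of 0.241 on the log2 CPM scale. The defining Kupffer cell and leukocyte markers were at or near 0: *Adgre1* was at 0 in 5 libraries and at 0.049 CPM in 1, *Clec4f* at 0 in 5 and at 0.19 CPM in 1, and *Ptprc* reached at most 0.38 CPM. *Csf1r* lay between 0.63 and 1.44 CPM. *Mpeg1* lay between 38.3 and 46.7 CPM, with overlap between genotypes. *Cd14* was higher in every C75S library, at 15.9 to 17.1 CPM against 12 to 13.8 CPM in WT. Its log2 fold change was 0.33, and it was not called (unadjusted p = 0.00361, adjusted p = 0.0892 by edgeR). All 18 listed macrophage markers summed to 59.7 to 65.8 CPM in C75S and 55.1 to 56.6 CPM in WT, without overlap. The 16 without *Cd14* and *Mpeg1* summed to between 3.05 and 3.85 CPM in C75S and between 2.33 and 4.51 CPM in WT.

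**Figure D2:**
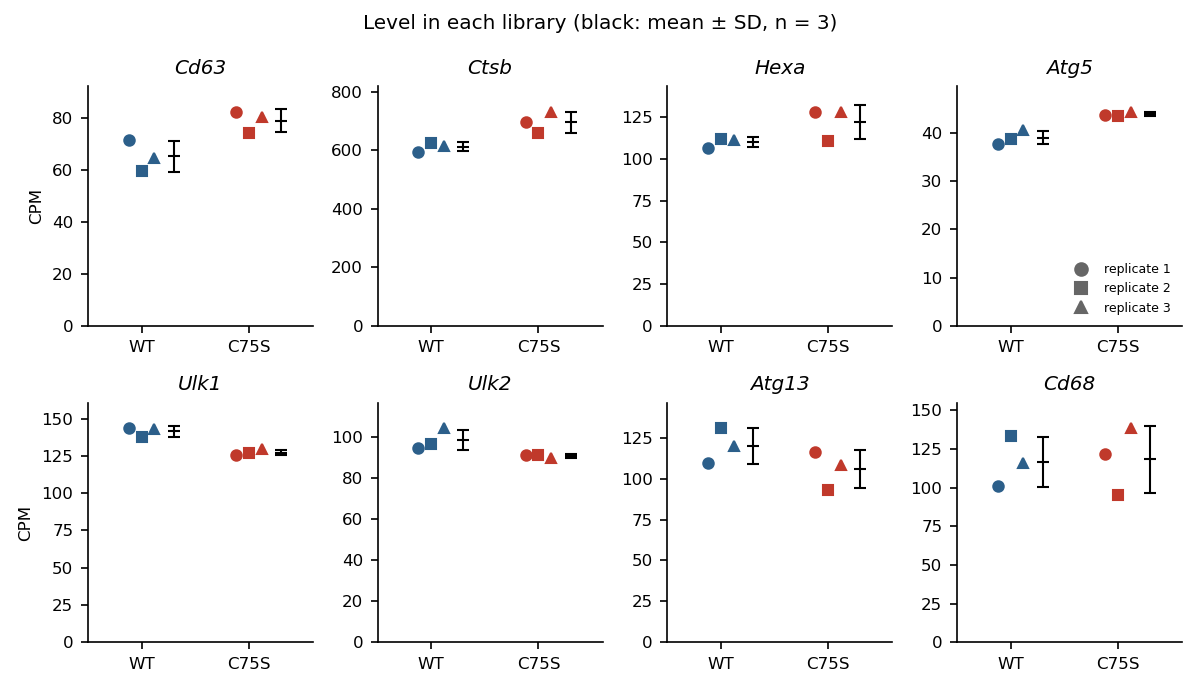
Level in each library (y axis, CPM from 0) for the 7 genes with an unadjusted p-value under 0.05 and for *Cd68*, with WT in blue, C75S in red and the replicate number as the symbol; the black mark is the mean ± SD of 3 libraries. *Cd63*, *Ctsb* and *Atg5* were higher and *Ulk1* and *Ulk2* lower in every C75S library, while *Hexa*, *Atg13* and *Cd68* overlapped between genotypes.

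The V-ATPase pumps protons into the lysosome. Its membrane-sector subunit *Atp6v0d1* averaged 89.6 ± 5.89 CPM in C75S against 84.7 ± 7.27 CPM in WT, and the catalytic subunit *Atp6v1a* averaged 129 ± 4.95 and 122 ± 7.09 CPM. *Atp6v1b2*, a further subunit of the catalytic head, was at 49.1 ± 1.51 and 49.7 ± 5.74 CPM. All 3 overlapped between genotypes, with adjusted p-values from 0.627 to 0.959 in edgeR.

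Cathepsins are the proteases of the lysosome. *Ctsb* (chr14:63122462-63145923, plus strand), a cysteine protease, was at 697, 660.0 and 732 CPM in C75S and at 595, 625 and 615 CPM in WT. All C75S libraries were above all WT libraries. The log2 fold change was 0.19 (SE 0.05), and the gene missed the threshold narrowly (unadjusted p = 0.0017, adjusted p = 0.0533 by edgeR). It was called in 7 of 15 alternative fits, among them DESeq2 (adjusted p = 0.0132) and limma-voom (adjusted p = 0.0347), and its highest adjusted p-value was 0.236, without C75S replicate 3. *Ctsl*, a further cysteine protease, was at 1045, 1061 and 1065 CPM in C75S and at 972, 1011 and 1007 CPM in WT. These groups did not overlap either, but the difference was small (log2 fold change 0.09, SE 0.05, adjusted p = 0.511 by edgeR).

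The other cathepsins overlapped between genotypes. The aspartic protease *Ctsd* was at 395, 399.5 and 417 CPM in C75S and at 425, 405 and 388 CPM in WT, with a 95% interval of the log2 fold change from -0.11 to 0.10. *Ctsz*, a carboxypeptidase, was at 591, 602 and 639 CPM in C75S and at 545, 608 and 605 CPM in WT. *Ctsh*, an aminopeptidase, was at 113 ± 13.1 and 109 ± 3.08 CPM, and *Ctsa*, the carboxypeptidase that also protects other lysosomal enzymes, was at 215 ± 9.73 and 222 ± 13.5 CPM. *Ctsd* shares 808 exon bases with *Gm49369* on the same strand, and *Ctsl* shares 395 with *Gm49230*. Reads in such shared bases were assigned to neither gene, so these levels may be understated. Likewise, *Atg9a* shares 1832 exon bases with *Gm29253*.

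Among the hydrolases of sugars and lipids, *Hexa*, the alpha subunit of the enzyme that trims GM2 ganglioside, was at 128, 111 and 128 CPM in C75S and at 106, 112 and 111 CPM in WT. C75S replicate 2 lay within the WT range. The log2 fold change was 0.15 (SE 0.06, unadjusted p = 0.0143, adjusted p = 0.194 by edgeR), and the gene was called in 1 of 15 alternative fits, the one without that library (adjusted p = 0.0379). *Gla*, the alpha-galactosidase, averaged 24.5 ± 3.29 CPM in C75S against 21.9 ± 0.71 CPM in WT (log2 fold change 0.16, adjusted p = 0.482 by edgeR). *Lipa*, the acid lipase that frees cholesterol and fatty acids from lipoproteins and lipid droplets, was at 191, 209 and 206 CPM in C75S and at 217, 213 and 218 CPM in WT. It was lower in every C75S library, with a log2 fold change of -0.10 (SE 0.05, unadjusted p = 0.0575, adjusted p = 0.396 by edgeR). *Psap*, the precursor of the saposins that help hydrolases reach lipids, was at 361 ± 12.1 and 352 ± 11.5 CPM.

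Levels across the 42 genes covered a wide range that both genotypes shared. Per kilobase of exon, the WT means ran from 1.32 to 448 CPM per kb with a median of 21, and 38 of 42 members lay above the median of all tested genes (5.22 CPM per kb). The 6 highest in WT were *Lamp1*, *Ctsz*, *Sqstm1*, *Gabarap*, *Ctsd* and *Ctsl*, and they held the same places in C75S. *Ctsz* was at 407 ± 24.8 and *Sqstm1* at 313 ± 9.39 CPM per kb, a step larger than their standard deviations. *Gabarap* (177 ± 4.32) and *Ctsd* (173 ± 7.91) did not differ beyond their spread. At the low end, *Gabarapl2* was at 1.69 ± 0.08 and *Atg14* at 4.65 ± 0.29 CPM per kb.

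**Figure D3:**
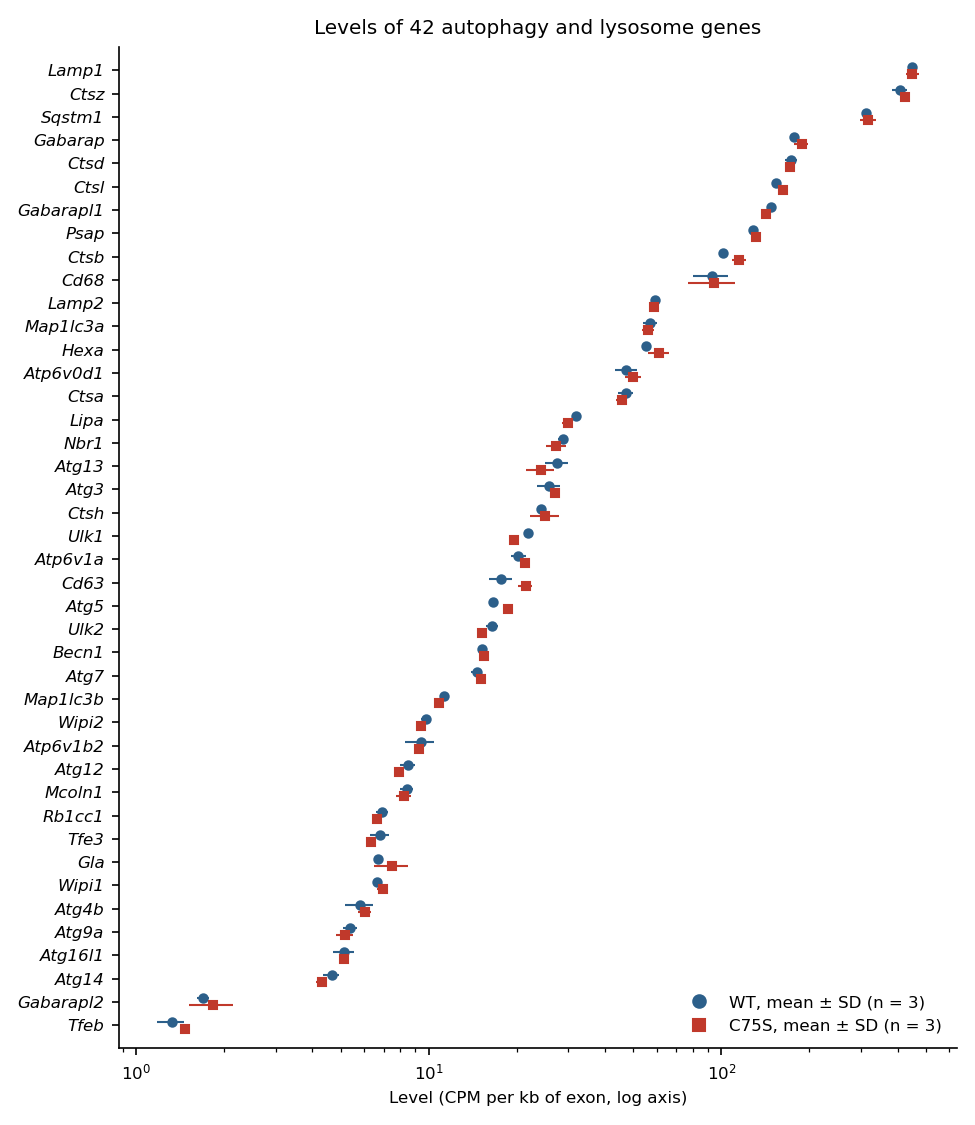
Mean level of each gene in WT (blue circles) and C75S (red squares) in CPM per kilobase of exon on a log axis, with bars for the SD of 3 libraries, in the order of the WT means. The genotypes lie close together along the whole range from *Tfeb* to *Lamp1*.

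Summed over the 42 genes, the members took 0.944%, 0.928% and 0.928% of the gene counts in C75S and 0.902%, 0.920% and 0.904% in WT. All C75S shares were above the WT shares on this scale. On the TMM scale the sums overlapped, from 9180 to 9463 CPM in C75S and from 8957 to 9279 CPM in WT. The 6 cathepsins together were at 3035 to 3202 CPM in C75S against 2854 to 2991 CPM in WT, without overlap. The 4 members from the ULK complex went the other way, also without overlap, at 410 to 428 CPM in C75S against 444 to 472 CPM in WT. The sums of the other single roles overlapped. Such sums give most weight to the most abundant genes. Singly, 4 of the 6 cathepsins had an estimate above 0, and *Ctsb* and *Ctsl* were the 2 without overlap. In the ULK complex 2 of 4 members were without overlap, beside 18.0% of all genes tested. No background share was computed for sums. The 22 members of the autophagy machinery together were at 3108 to 3159 and 3135 to 3219 CPM, with overlap. By sign, 12 of the 18 lysosomal members and 9 of the 22 autophagy members had an estimate above 0, beside 49.1% of all genes tested.

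A wider list of 151 genes from the same pathways, none of them a member, gave a similar picture, with 146 tested. Of these, 4 were called (2.74%, against 3.11% of all genes tested), 1 higher and 3 lower in C75S, and the median log2 fold change was 0.02. The fork head factors *Foxo1* and *Foxo3*, which are inhibited by insulin signalling and are known to activate autophagy genes, both fell in C75S. *Foxo1* was at 136, 138 and 147 CPM in C75S and at 155, 170.4 and 169 CPM in WT, or -0.23 on the log2 scale (SE 0.05, adjusted p = 0.0148 by edgeR). *Foxo3* was at 78.0, 80.5 and 77.8 CPM in C75S and at 92.5, 99.1 and 86.2 CPM in WT, or -0.23 on the log2 scale (SE 0.06, adjusted p = 0.021 by edgeR). In both genes every C75S library was below every WT library. Neither was called when C75S replicate 1 was dropped (adjusted p by edgeR of 0.0675 for *Foxo1* and 0.0731 for *Foxo3*) or WT replicate 2 (0.117 and 0.187). *Foxo1* was also not called without C75S replicate 2 (0.0614) or WT replicate 3 (0.0693), and *Foxo3* without C75S replicate 3 (0.0768).

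The other called genes of the wider list were *Asah1* and *Cd164*. *Asah1*, the acid ceramidase of the lysosome, rose from 143, 153 and 151 CPM in WT to 174, 166 and 171 CPM in C75S, without overlap (log2 fold change 0.19, SE 0.05, adjusted p = 0.0278 by edgeR). *Cd164*, a sialomucin of endosomes and lysosomes, fell from 490.4, 532 and 504 CPM in WT to 439, 427 and 466 CPM in C75S, also without overlap (log2 fold change -0.20, SE 0.05, adjusted p = 0.0338 by edgeR). *Asah1* kept its call when C75S replicate 2 was dropped (adjusted p by edgeR of 0.041) but with none of the other 5 libraries dropped, and reached 0.108 without C75S replicate 1. *Cd164* kept its call in those without C75S replicate 3 or WT replicate 1, and reached 0.245 without WT replicate 2.

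The counts by role stand beside all genes tested, of which 49.1% had an estimate above 0, 3.11% were called and 13.4% had an unadjusted p-value under 0.05 (6.91% higher). Among the wider list, 29 of 37 other lysosomal hydrolases and cofactors had an estimate above 0 (median log2 fold change 0.05), with 1 called and 9 at an unadjusted p-value under 0.05, of which 8 were higher. Of 8 other lysosomal proteases 6 were above 0 (median 0.07), with 0 called and 2 at an unadjusted p-value under 0.05. Of 18 other lysosomal membrane proteins 9 were above 0 and 9 below (median 0.003), and *Cd164* was both the 1 called and the 1 at an unadjusted p-value under 0.05. Of 14 other V-ATPase subunits 12 were above 0 (median 0.04), with 0 called in edgeR and 0 at an unadjusted p-value under 0.05. Of 14 receptors of selective autophagy 3 were above 0 (median -0.06), with 0 called and 1 at an unadjusted p-value under 0.05. Of 24 other genes of autophagosome formation 9 were above 0 (median -0.02), with 0 called and 4 at an unadjusted p-value under 0.05. Genes of nutrient signalling at the lysosome include the mTORC1 and GATOR components. Of 31 such genes tested 18 were above 0 (median 0.005), with 5 at an unadjusted p-value under 0.05. *Foxo1* and *Foxo3* were the 2 called among them.

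**Figure D4:**
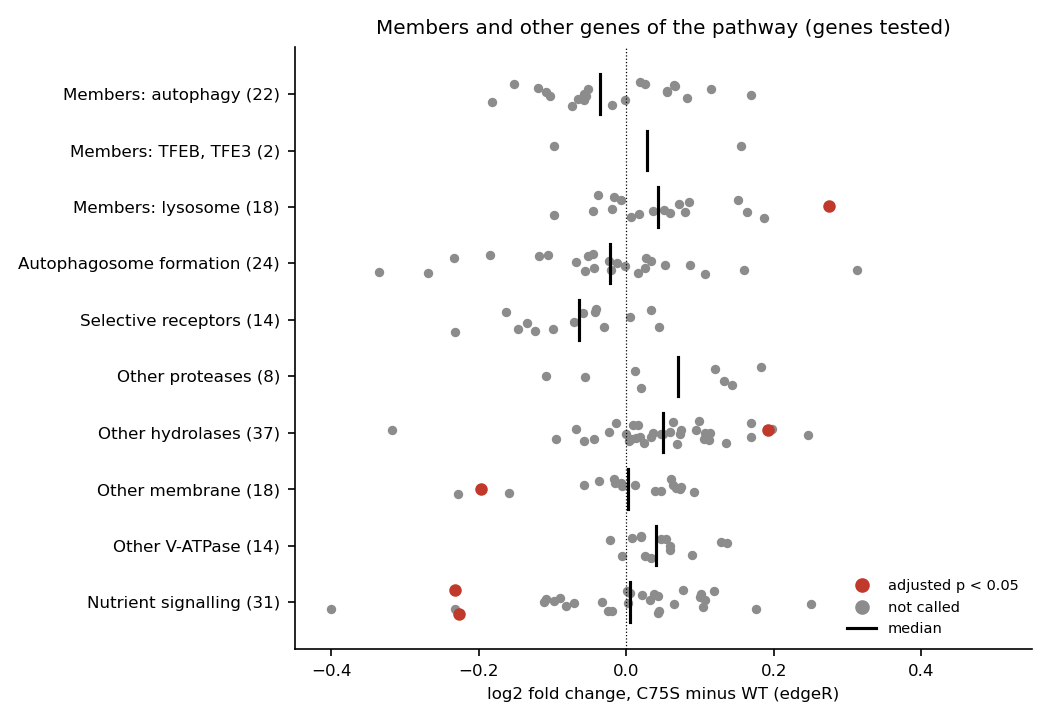
Log2 fold change of C75S minus WT (x axis, edgeR) for each tested gene, with members split by function in the top 3 rows and the wider list in the other 7; bars mark medians and red points an adjusted p-value under 0.05. Row medians run from -0.06 in the selective autophagy receptors to 0.07 in the other lysosomal proteases.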

How the data were processed

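Hepatocyte RNA from 3 C75S and 3 WT libraries had been sequenced. The deposited files hold raw counts per Ensembl gene and library, in the layout of STAR gene counts. Per the submitters' processing notes the tools were Trim Galore 0.6.6, STAR 2.7.9a and edgeR 3.36.0 and the build mm10 (GRCm38); the annotation release is not given in the sources used here. The reverse-strand column was used, and its totals were 32.9 to 33.9 times those of the forward-strand column. The 4 summary rows were dropped; multimapping reads, 17.98% to 18.5% of reads, were not counted to genes. Of 55487 gene rows, 55227 matched GENCODE M21, the source of symbols, positions and exon lengths (union of all exons).

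Counts were filtered with filterByExpr (minimum count 10), TMM-scaled and tested on all 12741 genes with edgeR 4.0.16 in R 4.3.3: quasi-likelihood, robust, genotype as the single term, two-sided, Benjamini-Hochberg over all genes. The standard error is the size of the log2 fold change divided by the root of F, and 95% intervals use the test's degrees of freedom. The procedure was tested on simulated data in which 200 of 12741 genes were changed. It called 19.5% of the genes changed 1.2-fold, 70% of those changed 1.5-fold and 84% of those changed 2-fold. Of its calls, 13.3%, 6.67% and 5.62% were false, in the same order. Alternatives used other scalings, DESeq2 1.42.0, limma-voom (limma 3.58.1), other filters, unstranded counts, a replicate block, each library left out, and, chosen after seeing the data, *Cd63* summed with its pseudogene. Copies were sought with BLAST 2.17.0.

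The members and lists were chosen with earlier results of these data known. Values in every library are given for members with an unadjusted p-value under 0.05, the 6 highest per kilobase, *Tfeb*, *Tfe3*, *Cd68* and the LC3 and GABARAP genes, and for called genes of the wider list; *Lipa* was added after its values were seen. Of 55 cell type markers 54 were matched.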

Additional observations from a re-analysis of the deposited data

How the results depend on the processing

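The count of 396 called genes (222 higher and 174 lower) was 573 with no filter (290 higher and 283 lower, of 23278 tested) and 480 with the replicate block, and ranged from 201 to 355 when 1 library was left out (253 when it was C75S replicate 1, 201 for WT replicate 2, 246 for WT replicate 3). The count of called members, 1 in the report, was 2 with upper-quartile scaling, library-size scaling, DESeq2, limma-voom or the replicate block, where *Ctsb* joined *Cd63*, and 3 with no filter, where *Atg13* was added. It ranged from 0 to 3 when a library was left out: 3 when it was C75S replicate 2, 1 when it was WT replicate 1 and 0 for each of the other 4. The wider list had 4 called genes, 7 with no filter, 6 with the replicate block and 0 to 3 when a library was left out. No pairing by replicate number was seen: deviations of same-numbered libraries from their group means correlated at 0.013, -0.027 and 0.037. Whether same-numbered libraries shared a batch was not tested. The median over members stayed within -0.008 to 0.038 over all alternatives.

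Among the 42 single members 590 alternative values kept direction and side of the threshold. *Cd63* kept its direction throughout. The sign turned in 28 values of 13 genes, all uncalled and at adjusted p-values of 0.72 or more. With all libraries these were *Atg16l1* at 0.010 with library-size scaling and 0.0020 with limma-voom, and *Ctsd* at 0.0035 with library-size scaling. With 1 library left out, the log2 fold change ran from -0.031 to 0.114 for *Atg4b*, -0.065 to 0.042 for *Atg16l1*, -0.061 to 0.018 for *Map1lc3a*, -0.0018 to 0.244 for *Gabarapl2*, -0.022 to 0.067 for *Sqstm1*, -0.019 to 0.049 for *Lamp1*, -0.035 to 0.0033 for *Lamp2*, -0.111 to 0.156 for *Cd68*, -0.086 to 0.0046 for *Mcoln1*, -0.065 to 0.083 for *Atp6v1b2*, -0.085 to 0.0012 for *Ctsa*, -0.039 to 0.028 for *Ctsd* and -0.015 to 0.141 for *Ctsh*. The cause was not tested.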
